A study of Mus musculus with 6 samples.

Results

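Protein tyrosine phosphatases of the Ptpn and Ptpr groups were compared between naive CD4 T cells that lacked and that carried Ly-6C, a lipid-anchored surface protein of the Ly6 family. The genes were taken by name: every probe set whose platform annotation gives a single symbol starting with Ptpn or Ptpr, and for each gene the probe set that was brightest on average across the 6 arrays. This gave 38 genes of the 19938 measured, 17 named Ptpn and 21 named Ptpr, from 51 probe sets. Ptprt was not analysed here. The name also takes in Ptprcap, which encodes a partner protein of CD45 and no phosphatase. For short, all 38 are called phosphatase genes below, which does not state that each encodes an active enzyme.

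Peripheral lymph nodes were taken at 6 weeks of age from mice of the strain C57BL/6 Foxp3-GFP, whose green fluorescence marks cells that make Foxp3, the factor that defines regulatory T cells. Both groups were sorted as CD4+, CD8-, TCRβ+, CD44lo, CD25- and Foxp3- and differed in the sort by Ly-6C. Each group has 3 Affymetrix arrays, labelled as biological replicates without stating which mice gave which cells, so p-values measure the spread between these samples. Values are log2 expression, and each difference given is the mean of the Ly-6C-negative arrays less that of the Ly-6C-positive arrays.

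Protein tyrosine phosphatases remove phosphate from tyrosine residues and thereby oppose, or in some cases switch on, tyrosine kinases. In T cells CD45 strips an inhibitory phosphate from the kinases Lck and Fyn and so keeps them ready for T cell receptor signals, while SHP-1, PTPN22 and TCPTP act against kinases of the receptor and cytokine pathways. The Ptpn genes encode enzymes inside the cell and most Ptpr genes encode receptors that span the membrane.

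None of the 38 phosphatase genes passed the test, and their differences were small. They ran from -0.16 for Ptpn18 to 0.25 for Ptpn12, that is from 1.12-fold lower to 1.19-fold higher in Ly-6C-negative cells. In the limma test over all genes 0 of 38 reached an adjusted p of 0.05, as against 0.145% of all genes (29 of 19938), and the lowest adjusted p among the 38 was 0.451, for Ptpn12. At an unadjusted limma p under 0.05 there were 2, Ptpn12 and Ptpn23, as against 6.71% of all genes. In a fit that blocked on replicate number, a pairing the labels do not state, 0 of 38 reached an adjusted p of 0.05 (0.206% of all genes did). At an unadjusted limma p under 0.05 there was 1 of 38 in that fit, against 7.31% of all genes. In a bulk sample fewer cells of a type and less RNA per cell cannot be told apart, so each value is a mean over the sorted population.

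The intervals around these differences were narrow on the scale of the array values. For all 38 genes the 95% interval of the limma difference lay within 1.5-fold in either direction, as it did for 98.8% of all genes. The bound farthest below 0 was -0.43, for Ptpn18, and the bound farthest above 0 was 0.48, for Ptpn3. These intervals are per gene and not adjusted for the number of genes. The bound of 1.5-fold was chosen once the values were known, so the count within it is a description and no test. The array summary can compress differences, above all those of dim genes, and 20 members were dimmer than the median gene. How far it did so was not measured. For these and for brighter members the intervals need not bound the difference in RNA. Of the 38 genes 24 lay above 0 and 14 below, or 63.2% above 0 against 47.8% of all genes. The median difference was 0.016 against -0.0048 over all genes, and the median size of a difference was 0.065 against 0.062.

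**Figure D1:**
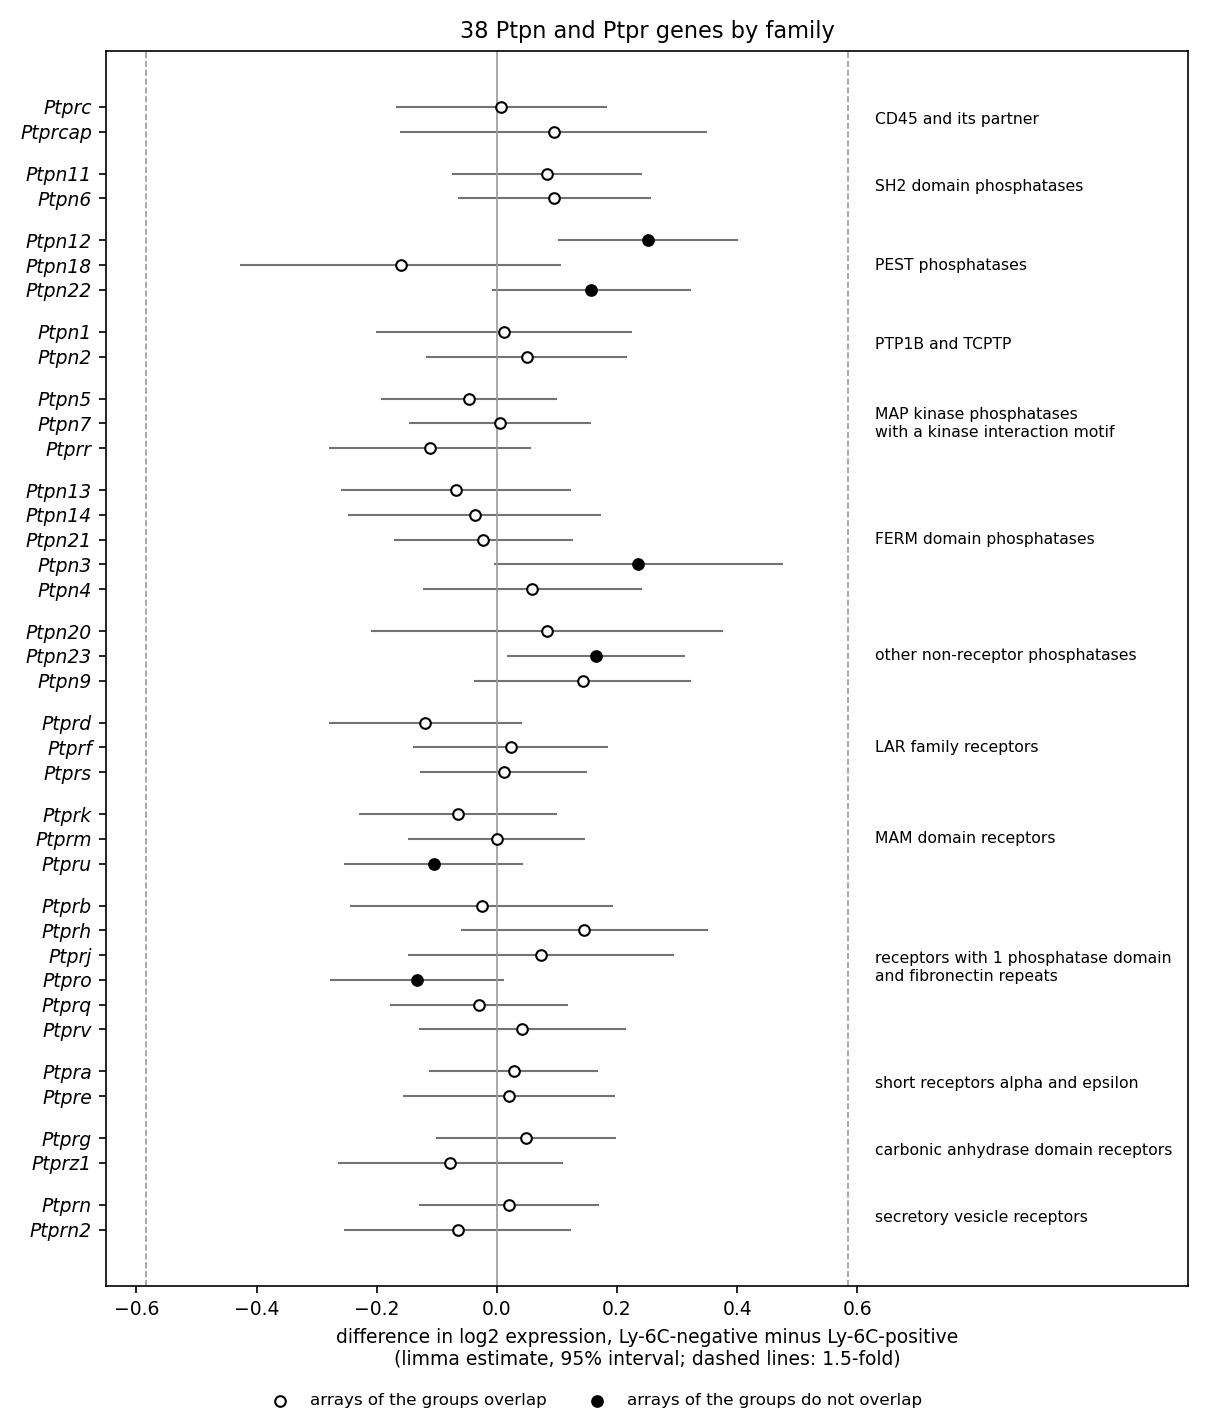
The difference in log2 expression (horizontal axis, Ly-6C-negative minus Ly-6C-positive) of each of the 38 genes, grouped by family, with limma's 95% interval as a bar. Filled points mark the 6 genes whose arrays do not overlap between the groups, and every interval ends inside the dashed lines at 1.5-fold. Family names follow known domain structure, and the name with 1 phosphatase domain need not hold for Ptprv.

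CD45, the most studied phosphatase of lymphocytes, had nearly equal transcript values in both populations. Ptprc (probe set 10358224), its gene, read 12.14, 12.12 and 12.08 on the Ly-6C-positive arrays and 12.13, 11.99 and 12.25 on the Ly-6C-negative arrays. The Ly-6C-negative arrays hold both the lowest and the highest of these values, and the groups overlap. The difference was 0.0076 ± 0.078 (standard error; limma adjusted p = 0.996), and its 95% interval ran from 0.890-fold to 1.14-fold. CD45 is made in several forms by splicing of exons that encode its outer part, and a single probe set per gene does not separate them. Ptprcap, whose product binds CD45 in the membrane, read 9.08, 9.21 and 9.13 against 9.12, 9.52 and 9.06. The highest value is that of Ly-6C-negative replicate 2, and the other 5 arrays lie close together. Its difference was 0.094 (limma adjusted p = 0.931), and without Ly-6C-negative replicate 2 it was -0.049.

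The phosphatases with SH2 domains, which dock on phosphorylated tyrosines of receptors and adaptors, showed small positive differences. Ptpn6, the gene of SHP-1, a brake on T cell receptor and cytokine signals, read 9.98, 10.06 and 10.08 in Ly-6C-positive cells and 10.22, 10.04 and 10.14 in Ly-6C-negative cells. Ly-6C-negative replicates 1 and 3 are above all Ly-6C-positive arrays and replicate 2 is among them. The difference was 0.096 ± 0.071 (standard error; limma adjusted p = 0.884), with an interval from 0.956-fold to 1.19-fold. Ptpn11, the gene of SHP-2, which promotes Ras and ERK signalling, read 8.46, 8.38 and 8.55 against 8.49, 8.56 and 8.59. Its groups overlap at the Ly-6C-positive replicate 3, and the difference was 0.084 (limma adjusted p = 0.898; interval 0.950-fold to 1.18-fold).

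Among the PEST phosphatases, which carry stretches rich in proline and bind cytoskeletal adaptors or the kinase Csk, 2 of 3 genes read higher on every Ly-6C-negative array than on any Ly-6C-positive array, as did 6.12% of all genes, and neither passed the test. Ptpn12 (probe set 10528268), the gene of PTP-PEST, read 9.36, 9.32 and 9.30 in Ly-6C-positive cells and 9.54, 9.54 and 9.66 in Ly-6C-negative cells. The groups are separated by more than the spread within either one. The difference was 0.25 with a standard error of 0.067, or 1.19-fold with an interval from 1.07-fold to 1.32-fold. It did not pass (limma adjusted p = 0.451, and from 0.267 to 0.930 over the alternatives). The 3 differences between arrays of the same replicate number were 0.17, 0.23 and 0.36, and with the block the limma adjusted p was 0.448.

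Ptpn22 (probe set 10494978) encodes a phosphatase that partners with Csk and acts on Lck and ZAP-70. It read 10.79, 10.79 and 10.84 in Ly-6C-positive cells and 10.92, 10.88 and 11.09 in Ly-6C-negative cells. All Ly-6C-negative arrays are above all Ly-6C-positive arrays, with replicate 3 the highest. The difference was 0.16 with a standard error of 0.074, or 1.12-fold with an interval from 0.995-fold to 1.25-fold (limma adjusted p = 0.755). Without Ly-6C-negative replicate 3 it was 0.095. Ptpn18, the third PEST gene, lay the other way and was the member with the lowest difference. It read 6.71, 6.92 and 6.85 against 6.69, 6.91 and 6.40, so that Ly-6C-negative replicate 3 alone is far below the others. Its difference was -0.16 ± 0.12 (standard error; limma adjusted p = 0.884), and without that array it was -0.027.

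The closely related enzymes PTP1B and TCPTP act on insulin receptor, JAK and STAT proteins. Ptpn2, the gene of TCPTP, read 8.76, 8.75 and 8.74 in Ly-6C-positive cells and 8.73, 8.94 and 8.74 in Ly-6C-negative cells. Apart from Ly-6C-negative replicate 2 the arrays are almost equal, and the difference was 0.050 (limma adjusted p = 0.947; interval 0.922-fold to 1.16-fold). A second, dimmer probe set of Ptpn2 read lowest, at 6.57, on that same array and differed by 0.14 (limma adjusted p = 0.917). Ptpn1, the gene of PTP1B, an enzyme of the endoplasmic reticulum, differed by 0.012 (limma adjusted p = 0.996).

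The phosphatases that bind MAP kinases through a short interaction motif include Ptpn7, the gene of the haematopoietic enzyme HePTP. It read 8.14, 8.05 and 8.14 against 8.08, 8.08 and 8.19, and the groups overlap. Its difference of 0.0050 (limma adjusted p = 0.998) was among the smallest, with an interval from 0.903-fold to 1.11-fold. Ptprr and Ptpn5, known mostly from neurons, differed by -0.11 (limma adjusted p = 0.864) and -0.047 (limma adjusted p = 0.942). Ptprr read 5.15, 5.25 and 5.21 in Ly-6C-positive cells and 5.21, 5.07 and 5.00 in Ly-6C-negative cells, where replicate 1 overlaps the other group.

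**Figure D2:**
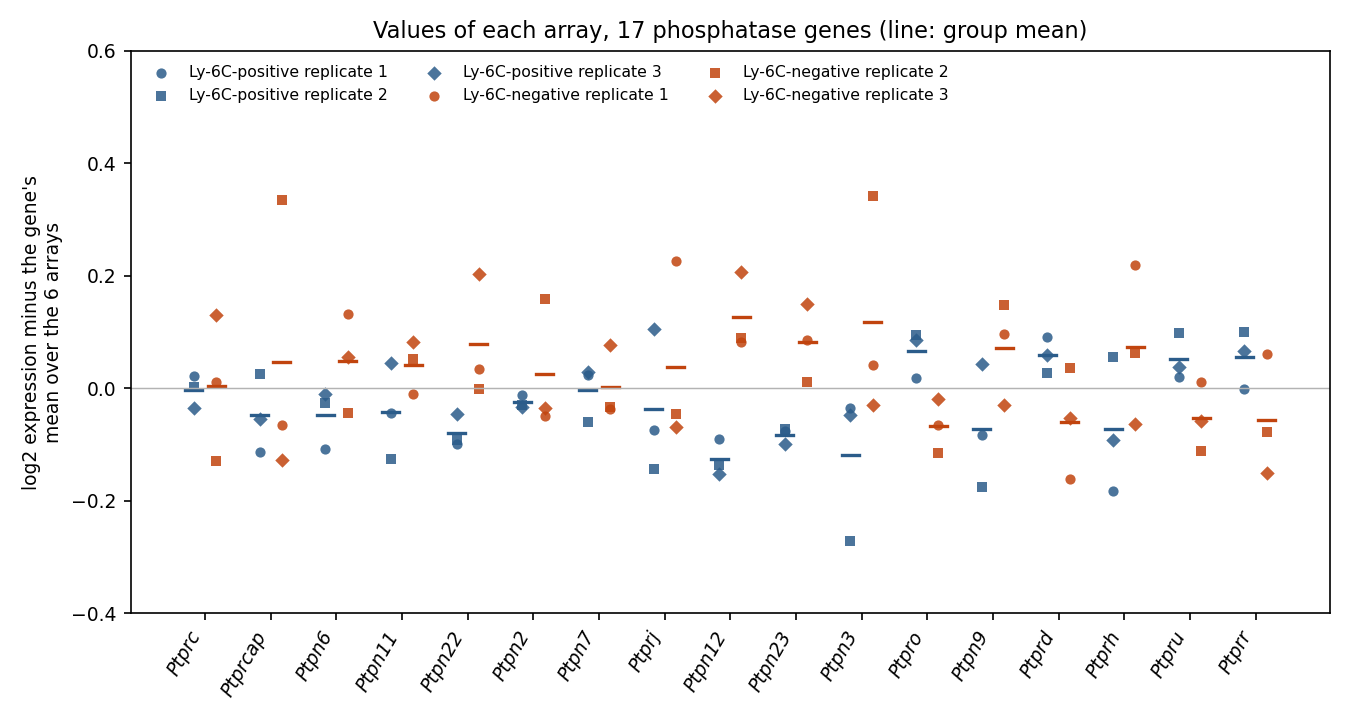
The log2 expression on each array (symbols mark the replicate number) minus the gene's mean over the 6 arrays (vertical axis) for 17 of the genes given with all their values, Ptpn18 being left out, and a line for each group mean. The groups are apart for Ptpn22, Ptpn12, Ptpn23, Ptpn3, Ptpro and Ptpru and overlap for the other 11 genes; Ly-6C-negative replicate 2 is the highest array for Ptprcap, Ptpn2, Ptpn3 and Ptpn9.

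The phosphatases with a FERM domain, which ties them to the inner side of the membrane, gave 1 gene of 5 without overlap, by a narrow gap, where 12.6% of all genes had none. Ptpn3 (probe set 10513156), the gene of PTPH1, read 6.69, 6.46 and 6.68 in Ly-6C-positive cells and 6.77, 7.07 and 6.70 in Ly-6C-negative cells. The gap between the groups is 0.0054 from Ly-6C-positive replicate 1 to Ly-6C-negative replicate 3. The difference of 0.24 had a standard error of 0.11 (limma adjusted p = 0.749), and it was 0.12 without Ly-6C-negative replicate 2. Ptpn4, the gene of the related enzyme PTPMEG, differed by 0.059, and Ptpn13, Ptpn14 and Ptpn21 by -0.067, -0.037 and -0.022, with limma adjusted p from 0.934 to 0.978.

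Ptpn3 is the gene with the most probe sets, and they did not move as one. Its 12 probe sets differed by -0.056 to 0.40, with 8 above 0, 4 below and a median of 0.026. In 2 of the 12 the groups did not overlap, the one kept and probe set 10513154. The latter read 6.29, 6.04 and 5.99 against 6.43, 6.38 and 6.43, a difference of 0.31 (limma adjusted p = 0.510). Probe set 10513158 had the highest difference, 0.40 with a standard error of 0.22, and its groups overlapped. Averaged over its probe sets, Ptpn3 differed by 0.095. Over the 51 probe sets of all members, 0 reached a limma adjusted p of 0.05 (0.115% of all probe sets did), 3 had an unadjusted limma p under 0.05 (6.64% of all probe sets), and 7 did not overlap (12.4% of all probe sets). Both probe sets of Ptprj lay above 0, at 0.074 and 0.10.

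**Figure D3:**
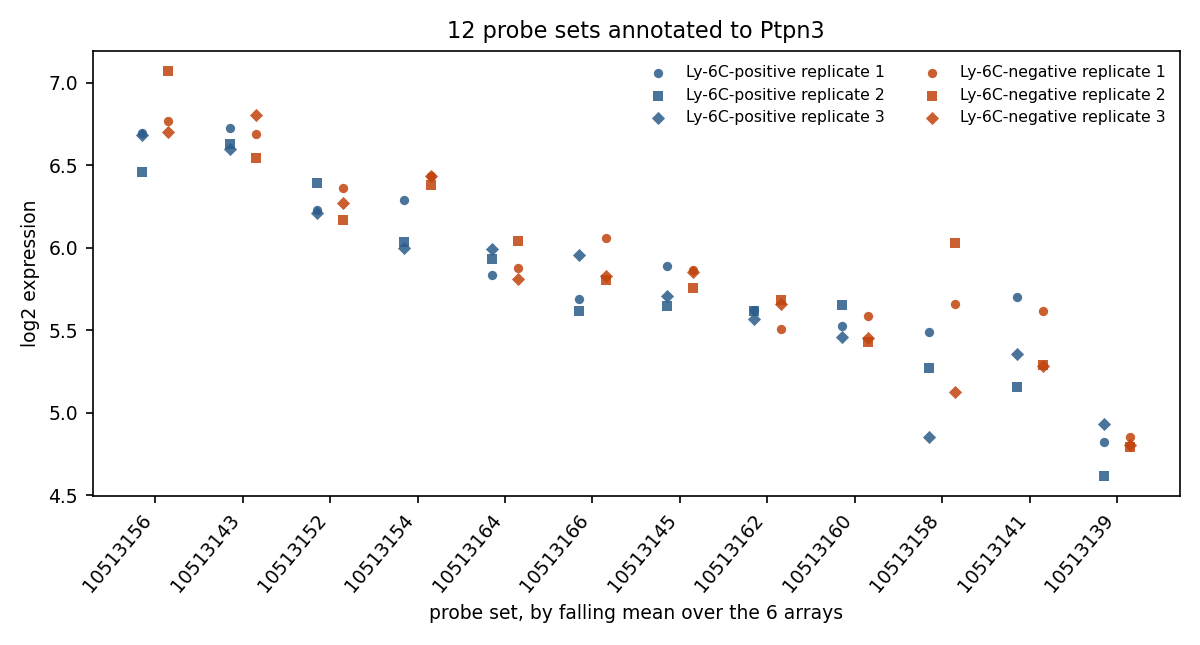
The log2 expression (vertical axis) of each of the 12 probe sets annotated to Ptpn3 on the 3 Ly-6C-positive and 3 Ly-6C-negative arrays, ordered by mean. The groups are apart in 10513156, by 0.0054, and in 10513154, and overlap in the other 10.

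The remaining Ptpn genes lay above 0. Ptpn23 (probe set 10597136), the gene of HD-PTP, which works in the sorting of receptors at endosomes, read 6.22, 6.23 and 6.20 in Ly-6C-positive cells and 6.38, 6.31 and 6.45 in Ly-6C-negative cells. The Ly-6C-positive arrays are tightly grouped and below all others. The difference was 0.16 with a standard error of 0.066, or 1.12-fold with an interval from 1.01-fold to 1.24-fold (limma adjusted p = 0.690, and 0.697 with the replicate block). Ptpn9, whose enzyme sits on secretory vesicles, read 7.30, 7.21 and 7.43 against 7.48, 7.53 and 7.36. Ly-6C-negative replicate 3 falls below Ly-6C-positive replicate 3, and the difference was 0.14 (limma adjusted p = 0.824). Ptpn20 differed by 0.083 (limma adjusted p = 0.948), with Ly-6C-negative replicate 1 at 4.62 and the other 5 arrays between 4.07 and 4.27. Of the 17 Ptpn genes 12 lay above 0, with a median difference of 0.059, and of the 21 Ptpr genes 12 did, with a median of 0.0076; the contrast between these name groups was not tested.

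Receptors grouped here for an outer part of fibronectin repeats were split. Ptprj, the gene of CD148, which acts on Src kinases in lymphocytes and myeloid cells, read 5.59, 5.52 and 5.77 in Ly-6C-positive cells and 5.89, 5.62 and 5.59 in Ly-6C-negative cells. Only Ly-6C-negative replicate 1 lies outside the range of the other group. The difference was 0.074 (limma adjusted p = 0.940), and without that array it was -0.021. Ptpro, known from kidney podocytes and also made in B cells, read 5.23, 5.30 and 5.29 against 5.14, 5.09 and 5.19. All Ly-6C-negative arrays are below all Ly-6C-positive arrays by a small margin, and the difference was -0.13 ± 0.065 (standard error; limma adjusted p = 0.784). Ptprh, known from the gut epithelium, read 5.18, 5.42 and 5.27 against 5.58, 5.43 and 5.30, with a difference of 0.15 (limma adjusted p = 0.847). Its highest value is Ly-6C-negative replicate 1, and the groups overlap. Ptprb, the endothelial receptor VE-PTP, differed by -0.025, Ptprq, of the inner ear, by -0.030 and Ptprv by 0.042, with limma adjusted p from 0.957 to 0.985.

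The other receptor families hold adhesion and neuronal receptors. In the LAR family, receptors of neurons and epithelia, Ptprd read 5.22, 5.15 and 5.18 against 4.96, 5.16 and 5.07. Ly-6C-negative replicate 2 overlaps the other group, and the difference was -0.12 (limma adjusted p = 0.842). Its relatives Ptprf and Ptprs differed by 0.023 and 0.011. Among the receptors with a MAM domain, which bind their own kind on neighbouring cells, Ptpru read 6.22, 6.30 and 6.24 against 6.21, 6.09 and 6.14. Here the groups do not overlap, although Ly-6C-negative replicate 1 lies 0.0090 below the nearest Ly-6C-positive array. The difference was -0.10 (limma adjusted p = 0.847). Ptprk, whose loss in rats impairs the making of CD4 T cells, differed by -0.065 and Ptprm by 0.00020.

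Ptpra and Ptpre, receptors with short outer parts that can activate Src kinases, differed by 0.028 and 0.020. The interval for Ptpra ran from 0.925-fold to 1.12-fold. Ptprg and Ptprz1, whose outer parts resemble carbonic anhydrase, differed by 0.048 and -0.077, and Ptprn and Ptprn2, islet autoantigens of secretory granules, by 0.020 and -0.066. These 6 genes had limma adjusted p from 0.919 to 0.985. All 13 families held 0 genes past the threshold.

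In 6 of the 38 genes, or 15.8%, no array of one group fell within the range of the other, where the share over all genes was 12.6%. Ptpn12, Ptpn23, Ptpn3 and Ptpn22 were higher (6.12% of all genes were higher without overlap) and Ptpro and Ptpru lower (6.50%). The share of members lies close to that of all genes. Differences between arrays of the same replicate number had 1 sign in all 3 pairs for 9 of 38 genes, or 23.7%, against 28.1% of all genes.

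**Figure D4:**
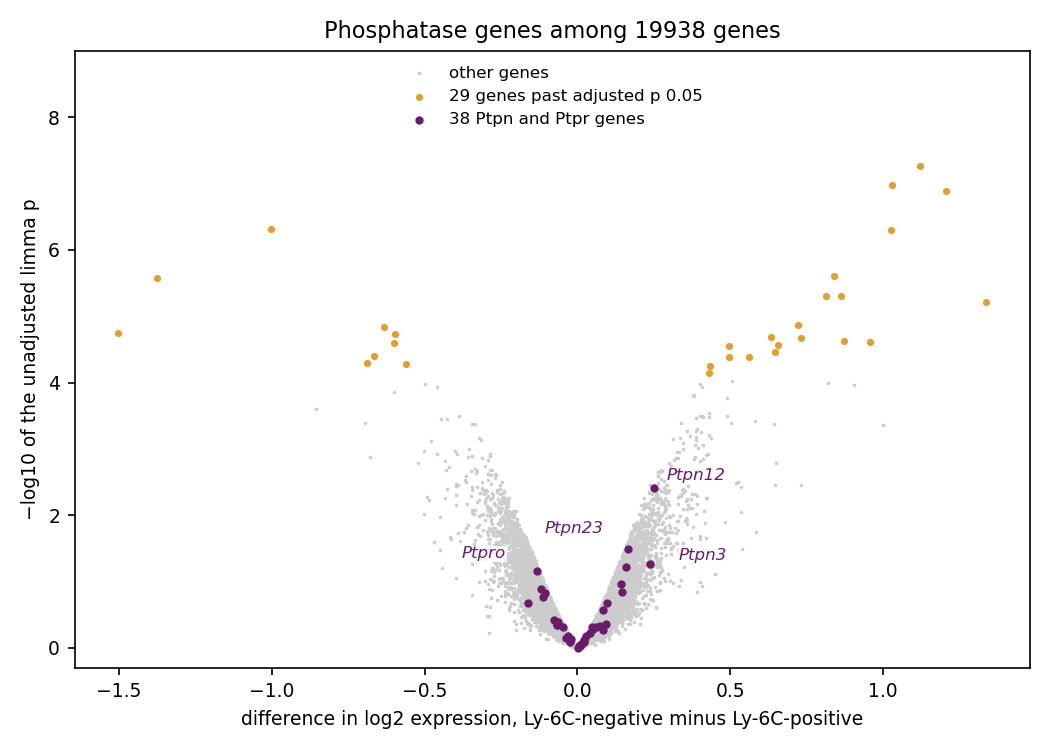
Each of the 19938 genes by its difference in log2 expression (horizontal axis, Ly-6C-negative minus Ly-6C-positive) and the −log10 of its unadjusted limma p (vertical axis). The 29 genes past an adjusted p of 0.05 stand at the upper left and right, and the 38 phosphatase genes stay below them, with Ptpn12, at 0.25, the one of lowest p.

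The phosphatase genes differed in how far above the dim end of the array they were read. Of the 38, 18 had a mean at or above that of the median gene, 6.37, and 20 were below it. The 18 were 13 of the 17 Ptpn genes and 5 of the 21 Ptpr genes, namely Ptprc, Ptprcap, Ptpra, Ptpre and Ptprs. Values near background are compressed by the array summary, so for the other 20, Ptpro, Ptpru, Ptprh, Ptprd, Ptprr, Ptprj and Ptpn23 among them, a difference on this scale may understate the difference in RNA. Within groups the 38 genes had a median pooled SD of 0.081, and all genes 0.095.

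Ly-6C-negative replicate 2 stood apart from the other arrays on the first principal component over all genes, with a score of 19.9 where the others ran from -10.0 to -0.26. It held the highest or lowest of the 6 values for 21 of 38 phosphatase genes, or 55.3%, as it did for 45.0% of all genes. Without it 0 of 38 genes passed, and likewise without each of the other arrays. Among genes listed as markers of other cells, 4 of 10 regulatory T cell genes rose in Ly-6C-negative relative to Ly-6C-positive cells at a limma adjusted p of 0.05. They were Ctla4, Izumo1r, Ikzf2 and Gpr83. Of 10 NK cell genes 2, Klrd1 and Gzma, fell at that threshold, which 0.145% of all genes passed. With the replicate block 4 of 10 regulatory T cell genes and 3 of 10 NK cell genes passed, as did 0.206% of all genes. In the regulatory T cell list 9 of 10 genes lay above 0, with a median difference of 0.36 and a lowest of -0.012. Foxp3, a gene of that list, differed by 0.013 (limma adjusted p = 0.995). The mean log2 level of the regulatory T cell list was 7.46 to 7.59 on the Ly-6C-negative arrays and 7.03 to 7.08 on the Ly-6C-positive arrays, and that of the NK cell list 5.62 to 5.73 against 5.91 to 5.94. In the NK cell list 4 of 10 genes lay above 0, up to 0.27, and the median difference was -0.054, with Klrd1 at -1.50 and Gzma at -0.69. Izumo1r still passed when any 1 array was left out, while Ctla4 lost its call without Ly-6C-positive replicate 2 or 3 or Ly-6C-negative replicate 1, Ikzf2 without these or Ly-6C-positive replicate 1, and Gpr83, Klrd1 and Gzma when any array other than Ly-6C-negative replicate 2 was left out, with limma adjusted p up to 0.290. Gzma also lost its call with every probe set as its own feature (limma adjusted p = 0.0503). Whether transcripts of these marker genes came from other cells or from the sorted cells themselves was not tested. Nor was their part in the phosphatase differences. No gene passed in the lists for CD4 T cells (0 of 9), CD8 T cells (0 of 2), B cells (0 of 9), myeloid and dendritic cells (0 of 13), stromal and endothelial cells (0 of 10) and erythrocytes and platelets (0 of 4). Group means in Ly-6C-negative and Ly-6C-positive cells were 10.50 and 10.59 for Cd4, 11.76 and 11.78 for Cd3e, 6.26 and 6.29 for Cd8a, 6.67 and 6.66 for Foxp3, 4.85 and 4.60 for Lyz2, 4.35 and 4.40 for Ncr1, and 6.02 and 5.95 for Cdh5.

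Lists of kinases, receptors and adaptors around these phosphatases, and a list of other phosphatases, likewise had 0 genes past the threshold. Over 6 lists with 82 distinct measured genes, 0 passed the limma threshold (0.145% of all genes did), 15, or 18.3%, had an unadjusted limma p under 0.05 (6.71% of all genes did), and the groups did not overlap in 18, or 22.0%, against 12.6% of all genes. In the blocked fit 1 passed, Ubash3b of the list of other phosphatases, where 0.206% of all genes did. The lists were chosen with results of these data known, and their genes were not compared with other genes by a test.

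In the list of tyrosine kinases and adaptors of the T cell receptor 0 of 20 passed, the median difference was -0.0015, and Lck was not analysed here. Csk, the kinase that adds the phosphate CD45 removes, differed by -0.012 (limma adjusted p = 0.994). Txk, a Tec family kinase, had the lowest p with a difference of -0.23, followed by Cblb, a ubiquitin ligase, at 0.17, Themis, an adaptor that binds SHP-1, at -0.11 and the Src kinase Fyn at 0.14, with limma adjusted p from 0.578 to 0.872. Of the JAK and STAT genes, on which TCPTP acts, 0 of 9 passed, with a median of 0.10. Stat5b, Stat2, Jak2 and Stat5a differed by 0.21, 0.19, 0.22 and 0.16 (limma adjusted p from 0.577 to 0.805).

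Among the receptors that recruit SHP-1 or SHP-2, 0 of 17 passed, with a median of 0.011. Cd5, a receptor that dampens T cell receptor signals, differed by 0.41 and the related Cd6 by 0.43, each with a limma adjusted p of 0.139. Without Ly-6C-negative replicate 2 both passed, at a limma adjusted p of 0.0341 and 0.0437, as they did with array weights, at 0.0311 and 0.0370. The adaptor gene Sit1 and the collagen receptor gene Lair1 lay the other way, at -0.39 and -0.29 (limma adjusted p of 0.278 and 0.473). The adaptors and ERK pathway genes had 0 of 14 past the threshold and a median of 0.014, with Ptk2b, a focal adhesion kinase relative, at 0.27, the Ras activator Rasgrp1 at 0.22, Grb2 at -0.17 and the Ras inhibitor Rasa1 at 0.14. Partners of the PEST phosphatases had 0 of 8 past the threshold and a median of 0.016, with Pstpip2 at 0.22, Cd2bp2 at -0.13, Pstpip1 at -0.072 and Was at 0.036.

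The list of other phosphatases, outside the Ptpn and Ptpr groups and not all specific for tyrosine, had 0 of 15 past the threshold and a median of 0.046. Ubash3b, the gene of STS-1, which removes phosphate from ZAP-70, read 6.81, 7.02 and 7.20 in Ly-6C-positive cells and 7.32, 7.74 and 7.92 in Ly-6C-negative cells. The groups do not overlap, and Ly-6C-negative replicate 3 is the highest. The difference was 0.65, which lay beyond every one of the 38 Ptpn and Ptpr genes, with a limma adjusted p of 0.312 without and 0.0115 with the replicate block and up to 0.843 under the other alternatives. Its relative Ubash3a differed by 0.091 (limma adjusted p = 0.917). The others named by the lowest p were Eya2 at -0.23, Cdc14a at 0.21 and Cdc25a, which acts on cell cycle kinases, at 0.24, with limma adjusted p from 0.632 to 0.724.

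**Figure D5:**
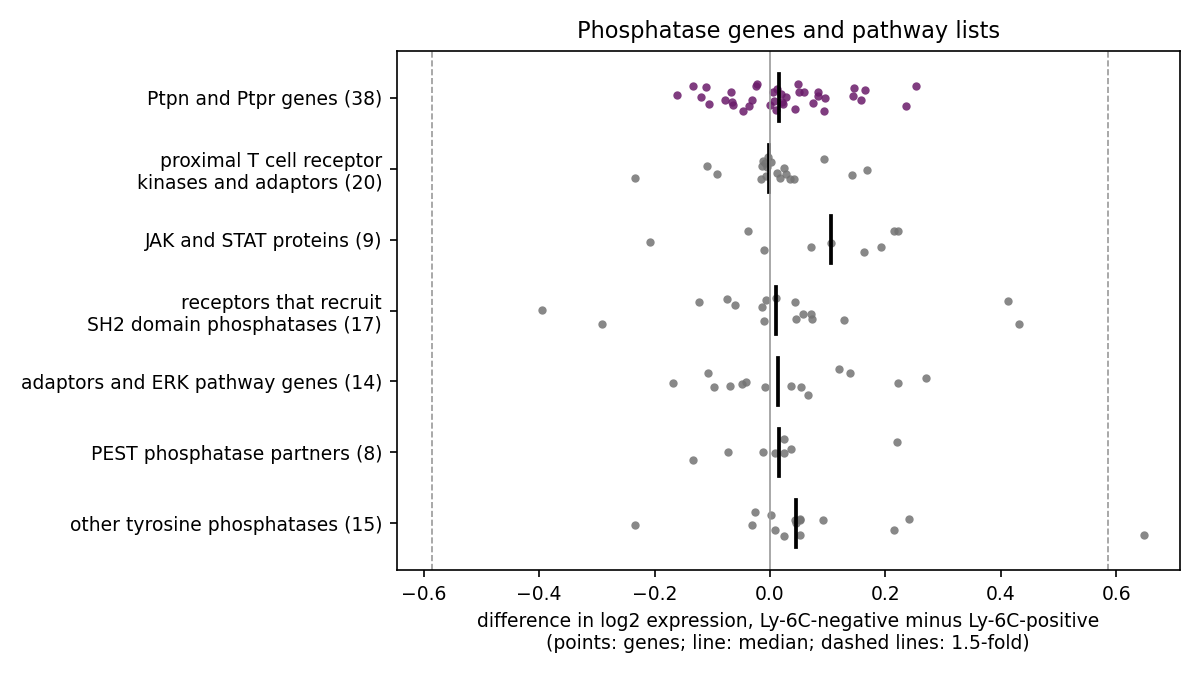
Differences in log2 expression (horizontal axis, Ly-6C-negative minus Ly-6C-positive) of the 38 phosphatase genes and of the measured genes of 6 pathway lists, with a line at each median and dashed lines at 1.5-fold. The phosphatase genes lie between -0.16 and 0.25, and the point farthest to the right is Ubash3b at 0.65.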

How the data were processed

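Total RNA of sorted cells was amplified, labelled with biotin and hybridised, per the labels' protocols. The deposited log2 values come from RMA and Partek, per the submitters' processing notes, with no version or role stated; neither the chip description nor the genome build is given in the sources used here, so no coordinates are printed. RMA makes the arrays' distributions alike and compresses dim genes. The values ran from 2.47 to 13.6, with array medians of 6.25 to 6.29, and were used as deposited. The 6 arrays limit the precision.

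Of 28853 probe sets, 21789 had 1 symbol; those with several (1621) or not listed (5443) were left out. Keeping the brightest probe set per gene left 19938 genes. The test, over all of them, was limma 3.58.1 run in R 4.3.3 (lmFit, eBayes, 2-sided, no covariate, no filter), with Benjamini-Hochberg adjustment over all genes and a threshold of 0.05. The genes given with all values are Ptprc, Ptpn6, Ptpn22, Ptprcap, Ptpn2, Ptpn11, Ptpn7, Ptprj and the 10 with the lowest p, and Ptpn18, which was added after its values were seen; each pathway list gives the 4 with the lowest p, and Csk, Ubash3a and Ubash3b. The members and lists were chosen with earlier results of these data known. The 1.5-fold bound was set after the values were seen.

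The replicate numbers were read as pairs from the data: once group means were subtracted, arrays sharing a number correlated across genes with r of 0.129, 0.128 and 0.107, and no pair of different numbers exceeded -0.011. Because group means were subtracted, values above 0 for shared numbers push those for different numbers below 0. The latter are thus no separate support for the pairing. The labels do not state the pairing, and it was not tested. In simulated data of 19938 genes the limma steps recovered 60.2% of changes of 0.5, 96.4% of changes of 1 and 5.7% of changes of 0.25 on the log2 scale, with 4.57% of calls false. The simulation changed 200 genes and drew normal noise independently for each array. The real arrays share structure, so these rates need not hold for them. Alternatives were another quantile normalization, median centring, leaving out dim genes, every probe set as a feature, averaged probe sets, trend and robust eBayes, array weights, the replicate block, leaving out each array, and an adjusted p of 0.1.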

Additional observations from a re-analysis of the deposited data

How the results depend on the processing

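No phosphatase gene passed under any of the 15 alternatives, the replicate block included (0 of 38), and the lowest adjusted p among them was 0.267, for Ptpn12. The 95% intervals within 1.5-fold were 38 of 38 without each array and under 6 other alternatives, 18 of 18 without dim genes and 50 of 51 over every probe set. Non-overlapping genes numbered 6 of 38 in the main fit. After a second quantile normalization they fell to 4 of 38, or 10.5% (11.98% of all genes). With averaged probe sets they numbered 5 of 38, or 13.2% (12.65% of all genes). Without dim genes they numbered 3 of 18, or 16.7% (13.3% of all genes). Without an array, where 2 arrays face 3, there were 8 to 12 of 38, or 21.1% to 31.6% (20.8% to 27.0% of all genes). The median difference was 0.039 with arrays centred on their median and 0.039 without dim genes, and 0.0062 to 0.020 without an array. Over all genes 29 passed in the main fit, 54 with array weights and 41 with the replicate block. Without Ly-6C-negative replicate 2 there were 47, and without any other array 5 to 21. Of the pathway genes 2 passed with array weights and 1 with the replicate block. Without Ly-6C-negative replicate 2 there were 2, and without any other array 0.

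The signs of small differences were not stable: 19 of 38 phosphatase genes changed sign under some alternative. With a second quantile normalization Ptpn1 was -0.019, Ptpn7 -0.025, Ptpra -0.0038 and Ptpre -0.0022. With median centring Ptpn21 was 0.0011, Csk 0.012 and Cd3e 0.0076. With array weights Ptprb was 0.016, Ptprv -0.0047, Csk 0.026 and Cd3e 0.012. Without an array the values ran from -0.086 to 0.066 for Ptpn1, -0.13 to 0.046 for Ptpn14, -0.017 to 0.086 for Ptpn2, -0.091 to 0.18 for Ptpn20, -0.048 to 0.012 for Ptpn21, -0.032 to 0.024 for Ptpn7, -0.087 to 0.084 for Ptprb, -0.055 to 0.074 for Ptprc, -0.049 to 0.18 for Ptprcap, -0.025 to 0.077 for Ptpre, -0.029 to 0.053 for Ptprf, -0.021 to 0.15 for Ptprj, -0.024 to 0.030 for Ptprm, -0.11 to 0.022 for Ptprn2, -0.050 to 0.0066 for Ptprq, -0.0096 to 0.025 for Ptprs, -0.0049 to 0.095 for Ptprv, -0.13 to 0.0089 for Ptprz1, -0.052 to 0.041 for Csk, -0.013 to 0.17 for Ubash3a, -0.20 to 0.0079 for Cd4, -0.097 to 0.089 for Cd3e, -0.066 to 0.012 for Cd8a, -0.074 to 0.12 for Foxp3 and -0.12 to 0.011 for Ncr1. The cause was not tested. Ptpn12, Ptpn23, Ptpn3, Ptpn22, Ptpro and Ptpru kept their signs under every alternative in which they were tested. This follows in part from groups that do not overlap in the main fit. Without the signal of a detection call, how far dim probe sets lie above background is unknown.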
